A study of Mus musculus with 12 samples.

Results

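The BCL2 family decides at the mitochondrion whether a stressed cell lives or dies. Expression of 10 of its genes was followed in mouse mesenchymal stromal cells (MSCs) treated with A1: the pro-survival genes Bcl2, Bcl2l1, Bcl2l2 and Mcl1, the BH3-only death genes Bcl2l11, Bmf, Pmaip1, Bid and Bad, and the effector Bak1. They were chosen by name, as the genes of the count table whose Ensembl identifiers map to these symbols, and are 10 of its 55487 genes. All 10 had enough counts to be tested. RNA was sequenced from primary bone marrow MSCs of wild-type (WT) C57BL/6 mice in 3 groups of 4 samples: control MSCs, which were untreated, MSCs given 50 μM A1, and MSCs given 50 μM A1 with 1 mg/mL ovalbumin (OVA, the albumin of chicken egg white). Treatment lasted 6 h and began in near-confluent cultures. A1 is a variant of Accum, a bile acid coupled to a nuclear localization signal, in which cholic acid carries the signal of hnRNPA1. The MSCs were maintained in AMEM with fetal bovine serum and penicillin-streptomycin. The labels also mention insulin at the end of their account of the A1 + OVA medium, and it is not clear whether that group alone received it, so that OVA and insulin cannot be told apart in that group. No sample received OVA without A1, so that OVA could be read only on top of A1.

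In healthy cells the pro-survival proteins BCL2, BCL-XL (from Bcl2l1), BCL-W (from Bcl2l2) and MCL1 hold the effectors BAX and BAK in check at the outer mitochondrial membrane. BH3-only proteins carry stress signals to them: BIM (from Bcl2l11) and the truncated form of BID engage both sides of the family, BAD binds chiefly BCL2, BCL-XL and BCL-W, NOXA (from Pmaip1) binds chiefly MCL1, and BMF is released when the cytoskeleton is disturbed or attachment is lost. When the effectors are freed they open the membrane, cytochrome c escapes and the apoptosome activates caspases. Much of this control acts on the proteins (cleavage of BID, phosphorylation of BAD and BIM, rapid degradation of MCL1 and NOXA), and none of it is seen in mRNA counts. Counts per gene also do not separate the long and short forms of BCL-X and MCL1 or the isoforms of BIM.

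The MSC label was checked against markers. Summed over 10 MSC genes, expression was 8152 to 8558 CPM in control MSCs, 5666 to 6053 CPM in A1-treated MSCs and 5789 to 6247 CPM in A1 + OVA-treated MSCs. CPM are counts scaled to a common total of the tested genes, with TMM factors. Most of the MSC sum came from Col1a1 (39027 to 58072 counts a sample) and Cxcl12 (19350 to 67733). Col1a1, Cxcl12, Pdgfrb, Pdgfra and Cd44 each had at least 1515 counts in every sample. In contrast, Thy1 (CD90) had 0 to 17 counts and Nt5e (CD73) 7 to 14, so that the mRNAs of both of these MSC surface markers were close to absent. The paper assessed CD90 and CD73 on its MSCs by flow cytometry, and mRNA counts do not measure the proteins. Of 10 blood cell and macrophage markers, 5 stayed at or under 3 counts in every sample, Cd3e was at 0, and Ptprc (CD45) had at most 4 counts. Their sum was 9.47 to 10.5 CPM in control, 11.98 to 14.74 CPM in A1-treated and 10.7 to 13.1 CPM in A1 + OVA-treated MSCs, and most of it was Cd14. The 5 endothelial markers summed to under 1 CPM in each sample, at most 0.916 CPM. Mitochondrial transcripts took 3.35% to 3.65% of the counts in control and 2.77% to 3.29% in treated samples. The part of these shifts in the values of the BCL2 family was not tested. Each sample had 13702348 to 16881995 counts, of which 8128 to 9767 fell on the 10 BCL2 family genes. In bulk RNA, fewer cells of a type and less RNA per cell cannot be told apart.

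The region before the first base of a gene is where many of its regulators bind, and the upstream sequences of the BH3-only genes that fell are shown here for that reason. RefSeq start sites were matched for 9 of the 10 genes, with 15 windows of 300 bases (250 before and 50 after the start, build GRCm38.p6). Pmaip1 is named only. The windows were searched on both strands for 6 motifs: the AP-1 site TGANTCA, the cyclic AMP element TGACGTCA, the amino acid response element TGATGNAA, the FOXO site GTAAACA, the heat shock element GAANNTTC and the E-box CACGTG. These were found in 7.81%, 1.79%, 3.97%, 3.65%, 7.86% and 7.15% of all 32851 windows. Bcl2l11, a gene known as a target of FOXO3 in other cells, held the FOXO site, which starts 227 bases before its first start site on chr2:128125788-128126037 (plus strand). Bmf held none of the 6 motifs in its 3 windows, and the most upstream one lies at chr2:118549687-118549936 (minus strand). Both stretches run 5′ to 3′ on the strand of the gene and end just before the start site, with the FOXO site in capitals.
Bcl2l11 upstream: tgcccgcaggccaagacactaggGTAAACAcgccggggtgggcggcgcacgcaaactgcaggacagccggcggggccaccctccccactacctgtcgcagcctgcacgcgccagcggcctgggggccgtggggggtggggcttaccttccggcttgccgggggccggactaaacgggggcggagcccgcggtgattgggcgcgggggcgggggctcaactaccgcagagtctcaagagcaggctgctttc
Bmf upstream: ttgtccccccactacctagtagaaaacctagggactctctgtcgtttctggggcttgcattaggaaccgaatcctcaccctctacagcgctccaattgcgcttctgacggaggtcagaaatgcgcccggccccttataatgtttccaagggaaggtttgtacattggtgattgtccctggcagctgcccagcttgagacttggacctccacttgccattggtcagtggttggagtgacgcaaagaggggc
The Bcl2l11 stretch of 250 bases is 72.0% G and C and the Bmf stretch 54.0%. Their whole windows of 300 bases are 71% and 55.3%, against a median of 52.7% over all 32851 windows. Among the other windows, only the first of Bad held a motif, a heat shock element that starts 30 bases before the start site. A match of letters is not evidence that a factor was bound there in these cells.

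Control MSCs expressed the 10 genes at very different levels. To compare genes, counts were divided by the exonic length of each gene and then scaled to a common total over all protein-coding genes (TPM). Bak1 was the highest at 204 ± 10.4 TPM (SD, n = 4), followed by Mcl1 at 175 ± 6.75 TPM and Bid at 146 ± 3.44 TPM. The next genes were several times lower, with Bad at 36.6 ± 4.35 TPM, Bcl2l2 at 32.4 ± 1.78 TPM, Bcl2l1 at 28.1 ± 1.52 TPM and Bcl2 at 18.9 ± 1.24 TPM. Bcl2l11 (9.90 ± 0.734 TPM), Pmaip1 (7.62 ± 0.760 TPM) and Bmf (5.18 ± 0.520 TPM) closed the order. Mcl1 was thus the pro-survival mRNA with the highest level, and the BH3-only mRNAs other than Bid and Bad were the lowest of the family. Among neighbours in this order, only Bad and Bcl2l2 overlapped between samples. In A1-treated MSCs the order changed at its lower end, where Pmaip1 (16.9 ± 1.67 TPM) stood above Bcl2l11 (5.47 ± 0.391 TPM) and overlapped with Bcl2 (19.7 ± 1.01 TPM). Bcl2l1, Bcl2l2 and Bad could not be ordered there, since Bcl2l1 overlapped with Bcl2l2 and Bcl2l2 with Bad. In A1 + OVA-treated MSCs Pmaip1 was at 18.2 ± 1.28 TPM, and only Bcl2l1 and Bad overlapped as neighbours.

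The effect of A1 was examined first. Of the 10 genes, 6 had higher expression after A1 than in untreated cells and 2 had lower expression (edgeR's quasi-likelihood test, adjusted p-value under 0.05 over 11314 protein-coding genes). Over all tested genes 31.7% were higher and 31.1% lower, so that a change as such was common. The 4 pro-survival genes were all higher but by small amounts, with log2 fold changes of 0.13 to 0.36. The BH3-only genes moved further and in both directions, with Pmaip1 higher by 1.25, Bmf lower by 1.60 and Bcl2l11 lower by 0.75 on the log2 scale, and Bid and Bad not past the threshold. These 3 genes were the only called ones that moved by 0.5 or more on the log2 scale, 1 upwards and 2 downwards, against 9.41% of all tested genes upwards and 11.6% downwards. The median log2 fold change of the 10 genes was 0.14, against -0.00172 for all genes, whose median absolute change was 0.23. In 5 of the 10 genes the A1-treated and control samples did not overlap, as in 54.4% of all tested genes.

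With A1 + OVA, 5 genes had higher and 2 lower expression than in untreated cells, against 29.7% higher and 27.9% lower among all genes. Pmaip1, Bmf and Bcl2l11 were again the only called ones with a log2 fold change past 0.5, a size reached upwards by 8.92% and downwards by 8.79% of all genes. The median log2 fold change was 0.08, against 0.00355 over all genes. The groups did not overlap in 6 of the 10 genes and in 49.4% of all genes. Both comparisons use the same 4 control samples and are not independent of each other.

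**Figure D1:**
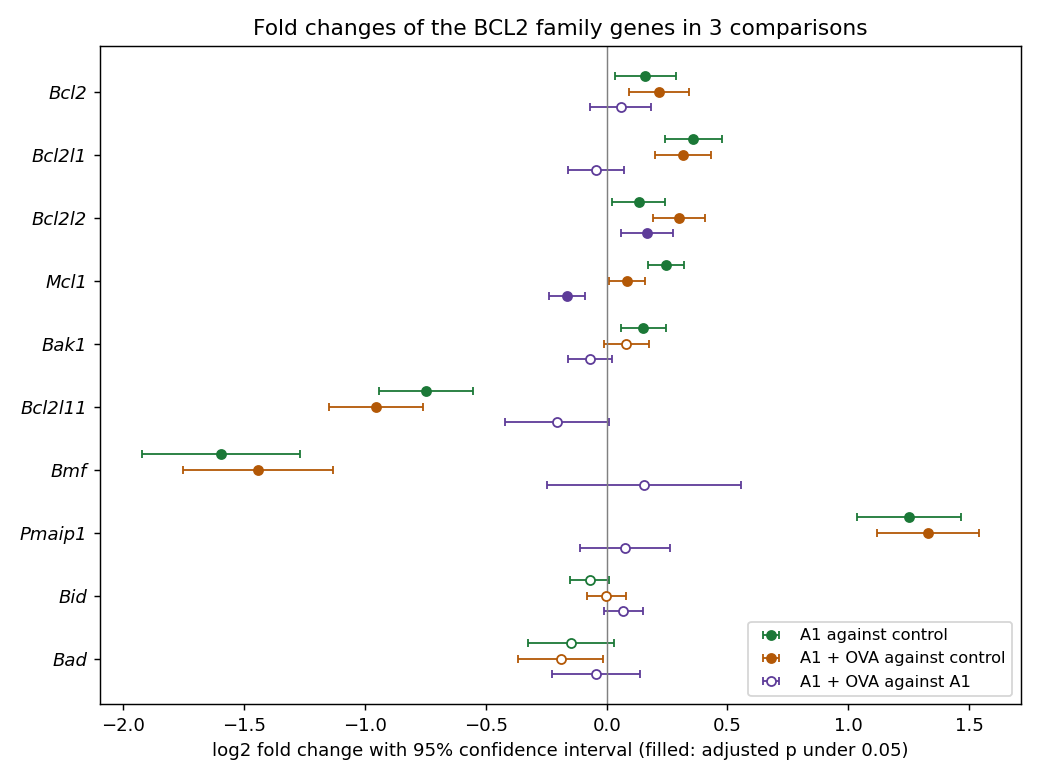
Log2 fold changes (x axis) of the 10 BCL2 family genes (y axis) for A1 against control, A1 + OVA against control and A1 + OVA against A1, with 95% confidence intervals as bars and filled points for an adjusted p-value under 0.05. Pmaip1 lies above 1 and Bmf under -1.4 in both comparisons with control MSCs, while the 4 pro-survival genes lie between 0.08 and 0.36.

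Bmf, whose product links the cytoskeleton to BCL2 proteins, had the largest decrease of the 10 genes in both comparisons with control. Its mRNA was at 6.81, 7.86, 6.19 and 6.65 CPM in the control samples. It was at 1.74, 2.37, 2.75 and 2.25 CPM with A1 and at 2.17, 1.90, 2.71 and 3.27 CPM with A1 + OVA. Each treated sample was below every control sample, and the treatments overlapped. Bmf fell with A1 by 1.60 on the log2 scale (standard error 0.157, 95% confidence interval -1.93 to -1.27, adjusted p = 1.37e-08), to 0.33 times the control level. With A1 + OVA it fell by 1.44 (standard error 0.149, adjusted p = 3.26e-08). Among 11314 genes it ranked 110th by decrease with A1 and 91st with A1 + OVA. The counts behind these values were 100 to 133 in control samples, 24 to 36 with A1 and 30 to 53 with A1 + OVA, so that this is the least deeply covered gene of the 10. Bmf (ENSMUSG00000040093) lies on chromosome 2 from 118528757 to 118549687 on the minus strand of GRCm38.

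Bcl2l11 encodes BIM, the BH3-only protein that binds all pro-survival members. The control samples had 18.13, 20.63, 21.04 and 20.44 CPM of Bcl2l11. The A1-treated samples had 12.8, 11.38, 12.6 and 10.96 CPM, and the A1 + OVA-treated samples 10.3, 10.7, 8.12 and 12.2 CPM. All treated samples were below all control samples, with 1 low sample in the A1 + OVA group. Bcl2l11 fell by 0.75 on the log2 scale with A1 (standard error 0.0933, adjusted p = 4.79e-07) and by 0.95 with A1 + OVA (standard error 0.0934, adjusted p = 1.47e-08). The difference between the treatments was -0.20 (95% confidence interval -0.42 to 0.01, adjusted p = 0.208) and did not pass the threshold. It ranked 731st and 328th by decrease. Bcl2l11 (ENSMUSG00000027381) lies on chromosome 2 from 128126038 to 128162547.

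Pmaip1 encodes NOXA, the BH3-only protein that pairs with MCL1 and is known to respond to p53 and to stress-induced transcription factors. It was at 5.08, 5.14, 4.83 and 5.96 CPM in control MSCs. With A1 it was at 12.51, 12.83, 14.05 and 10.75 CPM, and with A1 + OVA at 14.1, 13.4, 13.5 and 11.8 CPM. Every treated sample lay above every control sample, and the treatments overlapped. Pmaip1 rose by 1.25 on the log2 scale with A1 (standard error 0.104, 95% confidence interval 1.04 to 1.47, adjusted p = 8.41e-10), which is 2.38 times the control level. With A1 + OVA it rose by 1.33 (standard error 0.101, adjusted p = 2.32e-10), or 2.51 times. It ranked 218th and 182nd by increase, on counts of 78 to 95 in control samples and 148 to 212 in treated ones. Pmaip1 therefore moved opposite to Bmf and Bcl2l11 within the same class of genes.

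Bid and Bad, the BH3-only genes that are activated mainly by cleavage and dephosphorylation of their proteins, had small differences. Bid was at 130.5 ± 4.50 CPM in control, 124 ± 4.45 CPM in A1-treated and 130.4 ± 3.25 CPM in A1 + OVA-treated MSCs (SD, n = 4 each). Its log2 fold change with A1 was -0.07 (95% confidence interval -0.15 to 0.01, edgeR adjusted p = 0.119), and with A1 + OVA the interval was -0.08 to 0.08 (adjusted p = 0.982). Bad was at 23.7 ± 3.07, 21.4 ± 2.38 and 20.8 ± 0.959 CPM, and control replicate 1 (28.2 CPM) and A1 replicate 1 (24.9 CPM) were the highest of their groups. The log2 fold changes of Bad were -0.15 (interval -0.33 to 0.03, edgeR adjusted p = 0.143) and -0.19 (interval -0.37 to -0.01, adjusted p = 0.0602). Both genes changed their call with the treatment of the data. Without TMM scaling, Bid (adjusted p = 0.0019) and Bad (adjusted p = 0.0305) were called lower with A1, and Bad also with A1 + OVA (adjusted p = 0.0158). Bid was also called lower with A1 with upper-quartile scaling (adjusted p = 0.031) and, in another fit, without A1 replicate 3 (log2 fold change -0.10, adjusted p = 0.0461). Without A1 replicate 1, the Bad value with A1 was -0.23 (adjusted p = 0.0238), and without control replicate 1 it was -0.05. In the comparison of A1 + OVA with control, Bad was called lower in 9 of 20 alternatives. Beside the fit without TMM scaling, these were upper-quartile scaling (0.0388), no filter on low counts (0.0283), all genes of the file (0.0498), only the compared groups (0.0488) and the replicate block (0.0219). Bad also passed without control replicate 4 (adjusted p = 0.0327), without A1 replicate 1 (adjusted p = 0.0322) and without A1 replicate 4 (adjusted p = 0.0497).

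**Figure D2:**
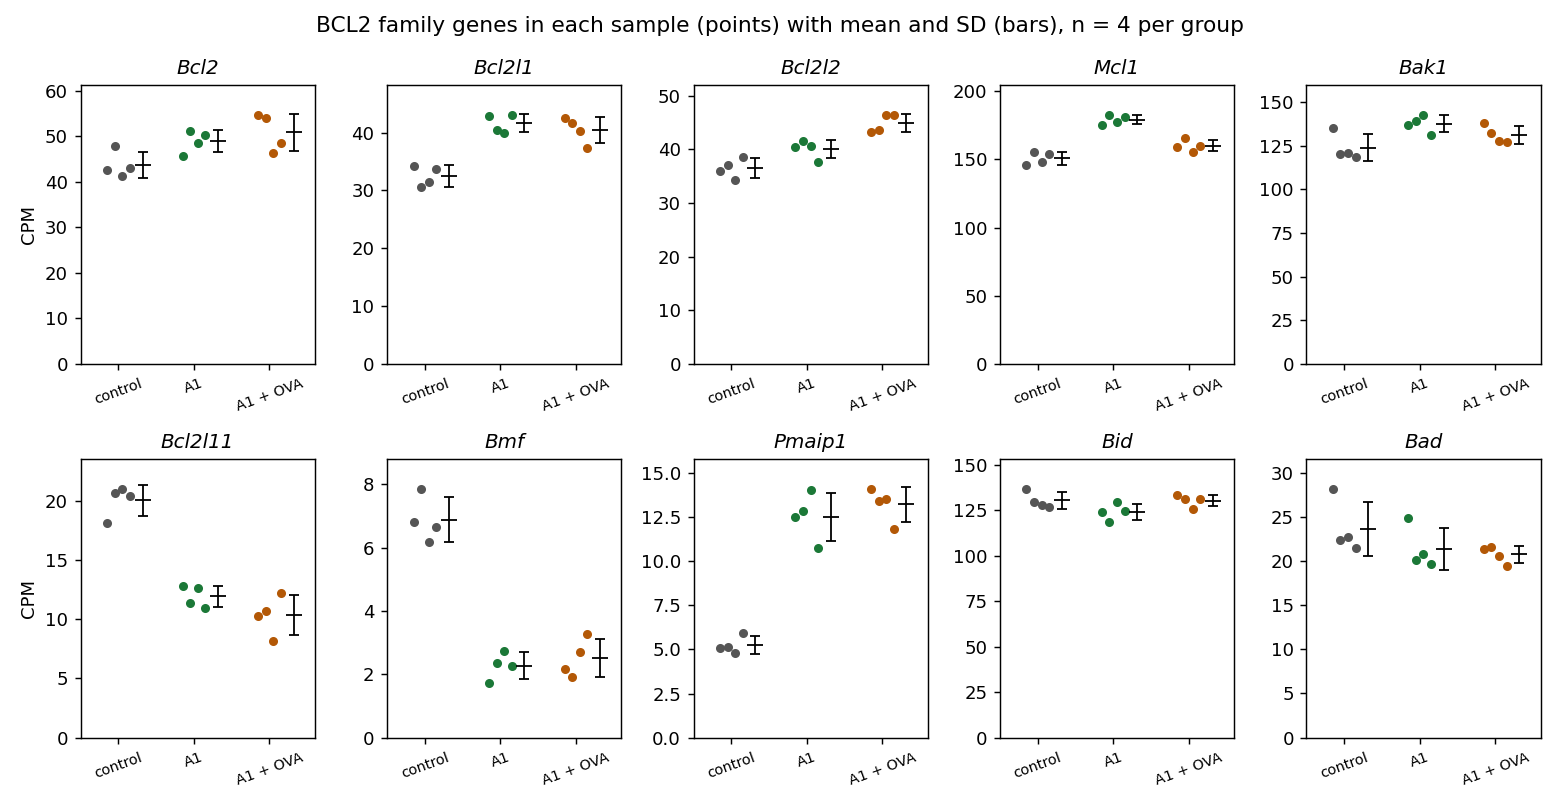
Expression in CPM (y axis, from 0) of the 10 BCL2 family genes in the control, A1 and A1 + OVA groups, with a point for each of 4 samples and bars for the mean ± SD. Bcl2l11 and Bmf are lower and Pmaip1 is higher in all 8 treated samples than in any control sample, whereas Bid and Bad overlap between groups.

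Among the pro-survival genes, Bcl2l1 (BCL-XL) had the largest increase with A1. It was at 34.3, 30.5, 31.4 and 33.7 CPM in control MSCs. The A1-treated samples were at 42.9, 40.5, 40.0 and 43.1 CPM, and the A1 + OVA-treated samples at 42.5, 41.6, 40.2 and 37.3 CPM. No treated sample overlapped with the controls. Bcl2l1 rose by 0.36 on the log2 scale with A1 (standard error 0.0563, adjusted p = 1.11e-05) and by 0.32 with A1 + OVA (standard error 0.0558, adjusted p = 5.32e-05), and the treatments differed by -0.04 (95% confidence interval -0.16 to 0.07, edgeR adjusted p = 0.655). These changes correspond to 28.2% and 24.4% more mRNA.

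Mcl1 encodes a short-lived protein that binds BIM, NOXA and BAK. Its mRNA was at 145.7, 155.5, 148.1 and 154.3 CPM in control samples. With A1 it was at 175.4, 182.8, 177.3 and 181.2 CPM, above every control sample. With A1 + OVA it was at 158.9, 165.5, 155.5 and 160.2 CPM, below every A1-treated sample and at or just above the highest control. Mcl1 rose by 0.25 with A1 (standard error 0.0360, adjusted p = 4.12e-06). It was lower with A1 + OVA than with A1 by a log2 fold change of -0.16 (95% confidence interval -0.24 to -0.09, adjusted p = 0.00466), and the 4 samples of each treatment did not overlap. This difference kept its call in all 20 alternatives. The remaining difference between A1 + OVA and control was 0.08 (interval 0.01 to 0.16, adjusted p = 0.0495), and it lost its call in 16 of 20 alternatives, with adjusted p-values of 0.0537 to 0.663 in those. The call was lost with DESeq2 (adjusted p = 0.0906), a stricter filter that kept genes with 10 or more counts in each library (0.0581), no filter on low counts (0.138), upper-quartile scaling (0.134), no TMM scaling (0.663), only the compared groups (0.114) and the whole table of genes (0.107). It was also lost without control replicate 1 (0.122) or 3 (0.123), without any of the 4 A1 replicates (0.0537 to 0.0956), or without A1 + OVA replicate 1 (0.0646), 2 (0.15) or 4 (0.0779).

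Bcl2l2 (BCL-W) had its larger difference with A1 + OVA. It was at 36.0, 37.1, 34.2 and 38.6 CPM in control, 40.4, 41.6, 40.5 and 37.6 CPM in A1-treated and 43.3, 43.6, 46.4 and 46.4 CPM in A1 + OVA-treated MSCs. The A1 + OVA samples lay above all others, and A1 replicate 4 overlapped with the controls. Bcl2l2 rose by 0.30 with A1 + OVA (standard error 0.0517, adjusted p = 3.81e-05). With A1 the change was 0.13 (standard error 0.0530, adjusted p = 0.0344), a call that ended in 9 of 20 alternatives. The calls ended with DESeq2 (adjusted p = 0.0634), without TMM scaling (0.413), with upper-quartile scaling (0.098), with no filter on low counts (0.0644), without control replicate 1 (0.0598) or 3 (0.123), and without A1 replicate 1 (0.081), 2 (0.0941) or 3 (0.0874). Between the treatments it was higher with A1 + OVA by 0.17 (standard error 0.0523, adjusted p = 0.038), which did not hold with DESeq2 (0.0659), with no filter (0.0547) or with the replicate block (0.0521). It also did not hold without A1 replicate 1 (0.0809), 3 (0.0732) or 4 (0.139) or without A1 + OVA replicate 3 (0.0988) or 4 (0.112). On the same strand, 13.3% of the exonic bases of Bcl2l2 are shared with the readthrough gene Gm20521, which had 0 counts in every sample. How reads on these shared bases were assigned is not stated, so that the 0 counts cannot show whether readthrough occurred.

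Bcl2, the founding member of the family, was at 42.6, 47.9, 41.3 and 43.0 CPM in control, 45.6, 51.1, 48.5 and 50.4 CPM in A1-treated and 54.7, 53.9, 46.4 and 48.6 CPM in A1 + OVA-treated MSCs. Control replicate 2 overlapped with both treated groups. Bcl2 was higher by 0.22 with A1 + OVA (standard error 0.0601, adjusted p = 0.00386), a call that held in all 20 alternatives. The change of 0.16 with A1 (standard error 0.0610, adjusted p = 0.0273) lost its call in 8 of them. These were upper-quartile scaling (adjusted p = 0.0632), no TMM scaling (0.249), and the fits without control replicate 1 (0.0575), 3 (0.0881) or 4 (0.0599) or without A1 replicate 2 (0.0778), 3 (0.0511) or 4 (0.0849).

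Bak1, the effector and the most abundant of the 10 mRNAs per length, was at 124 ± 7.62 CPM in control, 137 ± 4.90 CPM in A1-treated and 131 ± 5.05 CPM in A1 + OVA-treated MSCs. Control replicate 1, at 135.2 CPM, stood apart from the other control samples at 118.8 to 120.8 CPM and overlapped with the treated ones. Bak1 was higher with A1 by 0.15 (standard error 0.0446, adjusted p = 0.00571), which was lost without TMM scaling (adjusted p = 0.178). With A1 + OVA its log2 fold change was 0.08 (interval -0.01 to 0.17, adjusted p = 0.121). It was 0.13 and past the threshold (adjusted p = 0.0116) without control replicate 1.

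The small changes of the pro-survival genes depended on how libraries were put on a common scale. The TMM factors were 1.03 to 1.04 in control samples and 0.9745 to 0.9932 in treated samples. Without them, 2681 genes were called higher and 4493 lower with A1 (37.4% of calls higher, against 50.5% with TMM), and 2616 higher and 4097 lower with A1 + OVA (39.0% against 51.5%). The median of all genes moved to -0.08 and -0.06. Of the 10 genes, 3 were then higher and 4 lower with A1, and 4 higher and 3 lower with A1 + OVA. Pmaip1, Bcl2l1, Bmf and Bcl2l11 kept their direction and their call in both comparisons under each of the 20 alternatives, and so did Mcl1 with A1 and Bcl2 and Bcl2l2 with A1 + OVA. A required change of 0.5 or more on the log2 scale is not among these 20. Of the 10 genes, only Pmaip1, Bmf and Bcl2l11 passed it.

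A1 + OVA-treated and A1-treated MSCs were compared directly, without the control samples in the contrast. The groups differ in OVA and possibly in the insulin that the labels mention. Of the 10 genes, Bcl2l2 was higher and Mcl1 lower with A1 + OVA, and 8 did not pass the threshold. Over all tested genes, 6.05% were higher and 6.81% lower. None of the 10 genes had a called difference of at least 0.5 on the log2 scale, a size reached by 0.769% of all genes upwards and 0.433% downwards. For the 3 genes with the largest response to A1, the intervals of the difference were -0.25 to 0.56 for Bmf, -0.42 to 0.01 for Bcl2l11 and -0.11 to 0.26 for Pmaip1. The median difference of the 10 genes was 0.00709, against 0.00571 for all genes. In 2 of the 10 genes the samples did not overlap, against 18.1% of all genes.

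Pairs whose products bind each other were followed as ratios of raw counts within a sample, which need no scaling between libraries. There were 28.7, 30.2, 30.7 and 25.9 counts of Mcl1 per count of Pmaip1 in control samples. The ratio was 14.02, 14.25, 12.62 and 16.86 with A1 and 11.2, 12.3, 11.5 and 13.5 with A1 + OVA. The mean thus went from 28.9 ± 2.16 (SD, n = 4) to 14.4 ± 1.77 and 12.2 ± 1.04, with no overlap with the controls. The ratio of Bcl2 to Bcl2l11 moved the other way, from 2.19 ± 0.185 in control to 4.12 ± 0.498 with A1 and 5.01 ± 0.742 with A1 + OVA. The ratio of Bcl2l1 to Bad was 1.38 ± 0.147 in control, 1.96 ± 0.192 with A1 and 1.95 ± 0.0322 with A1 + OVA, again without overlap with the controls. These ratios repeat the changes of their genes and were not tested. They are ratios of mRNA counts, not of proteins.

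**Figure D3:**
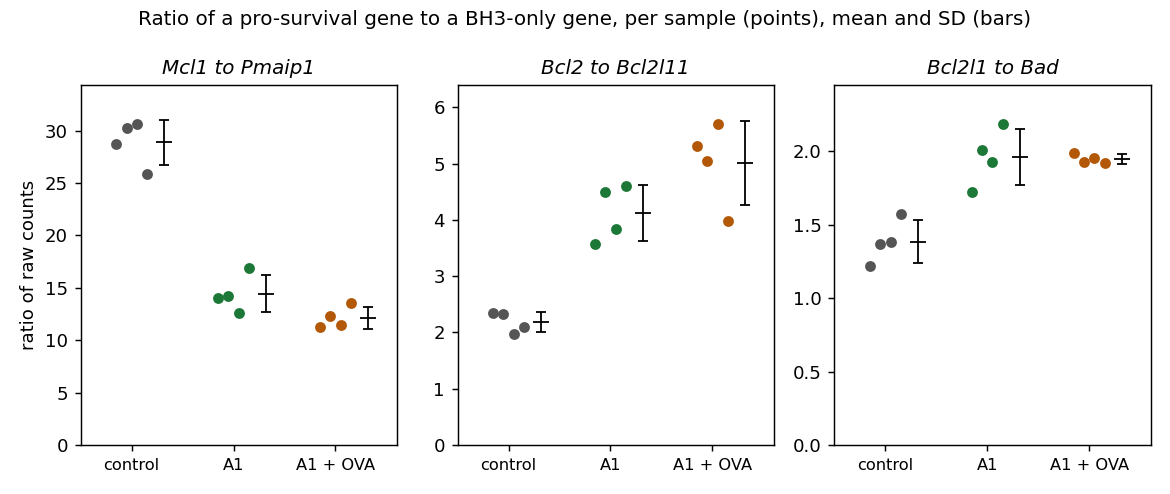
Ratio of raw counts (y axis, from 0) of a pro-survival gene to a BH3-only gene in the control, A1 and A1 + OVA groups, with a point per sample and bars for the mean ± SD of 4 samples. Mcl1 to Pmaip1 is lower in all treated samples (11.2 to 16.9) than in control samples (25.9 to 30.7), while Bcl2 to Bcl2l11 and Bcl2l1 to Bad are higher.

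The remaining BCL2 family was counted next. Of 15 further genes, 7 were expressed enough to be tested. With A1 2 were higher and 2 lower, against 31.7% higher and 31.1% lower over all tested genes. With A1 + OVA 3 were higher and 2 lower, against 29.7% and 27.9% over all genes. Between the treatments 2 were lower with A1 + OVA, Bnip3l (log2 fold change -0.25, edgeR adjusted p = 0.000255) and Bnip3 (-0.16, adjusted p = 0.0484), against 6.81% lower over all genes. The Bnip3 call ended, with adjusted p-values of 0.0518 to 0.169, with DESeq2, other scalings, only the compared groups in the fit or the replicate block, and without control replicate 3 or 4, A1 replicate 1 or 3, or A1 + OVA replicate 2, 3 or 4. Bik, Hrk, Bcl2a1a, Bcl2a1b, Bcl2a1d, Bcl2l10, Bcl2l14 and Bcl2l15 had at most 2 counts in any sample. Bok, an effector-like relative of BAX and BAK, was at 17.9 to 26.5 CPM in control, 48.9 to 55.5 CPM in A1-treated and 53.7 to 57.0 CPM in A1 + OVA-treated MSCs. It rose by 1.16 on the log2 scale with A1 (standard error 0.0792, adjusted p = 3.65e-11) and by 1.26 with A1 + OVA (standard error 0.0779, adjusted p = 7.96e-12). Bnip3, which marks mitochondria for removal, rose by 0.94 (adjusted p = 2.47e-12) and 0.78 (adjusted p = 6.42e-11), while its relative Bnip3l fell by 0.21 (adjusted p = 9.7e-05) and 0.46 (adjusted p = 1.58e-09). Bax, the partner effector of Bak1, was at 26.8 ± 2.36, 29.6 ± 1.49 and 30.4 ± 1.88 CPM, with log2 fold changes of 0.14 (adjusted p = 0.0691) and 0.18 (adjusted p = 0.0274). The A1 value of Bax was past the threshold with the replicate block (0.0463) and without control replicate 1 (0.0387). The A1 + OVA value was not past it with upper-quartile scaling (0.0533), with no TMM scaling (0.172), or without control replicate 2 (0.119), A1 + OVA replicate 1 (0.0685) or 3 (0.0828). Bbc3, which encodes the p53 target PUMA, had log2 fold changes of -0.30 (adjusted p = 0.121) and -0.21 (adjusted p = 0.271), on 37 to 74 counts. Without A1 replicate 4, the high sample of its group, Bbc3 was called lower with A1 (adjusted p = 0.00888).

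Genes around the family were described from lists of partners, caspases, death receptors with their signalling proteins, and regulators. Over all tested genes, 31.7% were higher and 31.1% lower with A1, and 29.7% and 27.9% with A1 + OVA. These shares are the background of each count below. Of 17 tested partners and turnover genes, 4 were higher and 6 lower with A1, and 3 and 5 with A1 + OVA. Dynll1, the dynein light chain known to hold BIM, rose by 0.36 (adjusted p = 4.89e-07) and 0.28 (adjusted p = 1.33e-05), and Dynll2, the light chain known to hold BMF, fell by 0.20 (adjusted p = 5.33e-05) and 0.22 (adjusted p = 1.86e-05). Mtch2, the mitochondrial receptor of truncated BID, fell by 0.23 with A1 and 0.16 with A1 + OVA, and Vdac2, a mitochondrial channel that binds BAK, rose by 0.18 and 0.17 (edgeR adjusted p = 5.01e-06, 0.000451, 0.000327 and 0.000755). Of 17 genes of the apoptosome, the caspases and their inhibitors, 2 were higher and 4 lower with A1 and 3 and 5 with A1 + OVA. Cycs, the gene of cytochrome c, rose by 0.49 (adjusted p = 4.75e-07) and 0.42 (adjusted p = 4.24e-06). The caspase inhibitors Xiap and Birc2 fell with A1 by 0.21 and 0.46 (adjusted p = 0.000215 and 1.16e-05). The initiator pair Apaf1 and Casp9 had log2 fold changes of 0.09 and -0.12 with A1 (adjusted p = 0.136 and 0.18) and of -0.04 and -0.17 with A1 + OVA (adjusted p = 0.542 and 0.0601). Casp9 was called lower with A1 without TMM scaling (adjusted p = 0.0329). With A1 + OVA it was called lower in 9 of 20 alternatives, with adjusted p-values of 0.0135 to 0.0496: with upper-quartile or no TMM scaling, no filter on low counts, all genes of the file or only the compared groups, and without control replicate 2 (0.0426) or 4 (0.0486), A1 replicate 3 (0.0383) or A1 + OVA replicate 3 (0.0213).

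Of 10 genes of death receptors and their signalling proteins, 5 were higher and 3 lower with A1, against 31.7% and 31.1% of all genes. The 5 were Fadd, Ripk1, Casp8, Cflar and Mlkl, none of them a receptor. Without TMM scaling, Casp8 lost its call with A1 (log2 fold change 0.05, edgeR adjusted p = 0.249), and the list had 6 calls in place of 8. The 3 lower genes were the receptors Fas, Tnfrsf10b and Tnfrsf1a. With A1 + OVA, Cflar and Mlkl were higher and the same 3 receptors lower, against 29.7% and 27.9% of all genes. Fas, the receptor of FAS ligand, was at 18.2, 19.3, 16.0 and 18.3 CPM in control, 4.92, 6.34, 7.94 and 5.88 CPM in A1-treated and 8.41, 9.50, 9.11 and 8.44 CPM in A1 + OVA-treated MSCs. The 3 groups did not overlap. Fas fell by 1.52 on the log2 scale with A1 (standard error 0.106, adjusted p = 4.92e-11) and by 1.02 with A1 + OVA (standard error 0.0966, adjusted p = 9.39e-09), and was higher by 0.50 with A1 + OVA than with A1 (standard error 0.119, adjusted p = 0.00752). Cflar, the inhibitor of caspase 8 at the receptor, rose by 0.28 in both comparisons (adjusted p = 0.000132 and 0.000142), and Tnfrsf10b, the TRAIL receptor, fell by 0.16 and 0.17 (adjusted p = 0.00394 and 0.00357).

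Of 15 tested transcriptional regulators known to act on the family, 8 were higher and 3 lower with A1, and 8 and 4 with A1 + OVA. The shares over all genes were 31.7% and 31.1% with A1, and 29.7% and 27.9% with A1 + OVA. Foxo3, which is known to drive Bcl2l11, was at 56.4 to 60.7 CPM in control, 47.9 to 51.9 CPM in A1-treated and 48.4 to 54.6 CPM in A1 + OVA-treated MSCs. Foxo3 fell by 0.22 (adjusted p = 0.000389) and 0.17 (adjusted p = 0.00381). Foxo1 had log2 fold changes of -0.49 with A1 and -0.56 with A1 + OVA. Jun, a component of AP-1, rose by 0.88 (adjusted p = 1.69e-13) and 0.73 (adjusted p = 4.21e-12). Egr1 rose by 1.49 with A1 and 0.71 with A1 + OVA, and Myc by 1.03 and 0.95. Atf3, with at most 98 counts in a sample, rose by 0.82 and 0.68, and Atf4 by 0.40 and 0.37. Foxo1, Egr1, Myc, Atf3 and Atf4 passed the threshold in both comparisons. Whether any of these regulators acted on the family in these cells was not tested. Trp53 (p53), which acts largely through its protein level, had log2 fold changes of 0.04 (adjusted p = 0.391) and -0.06 (adjusted p = 0.243), of which the first turned to -0.04 and the second was called lower (adjusted p = 0.0175) without TMM scaling. Ddit3 (CHOP) had -0.17 (adjusted p = 0.0638) and -0.05 (adjusted p = 0.57). With A1 it was called lower in 7 of 20 alternatives: with upper-quartile scaling (0.0347), no TMM scaling (0.00972), no filter on low counts (0.038) or only the compared groups in the fit (0.0448), and without control replicate 1 (0.0272), A1 replicate 2 (0.0269) or A1 + OVA replicate 3 (0.049).

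**Figure D4:**
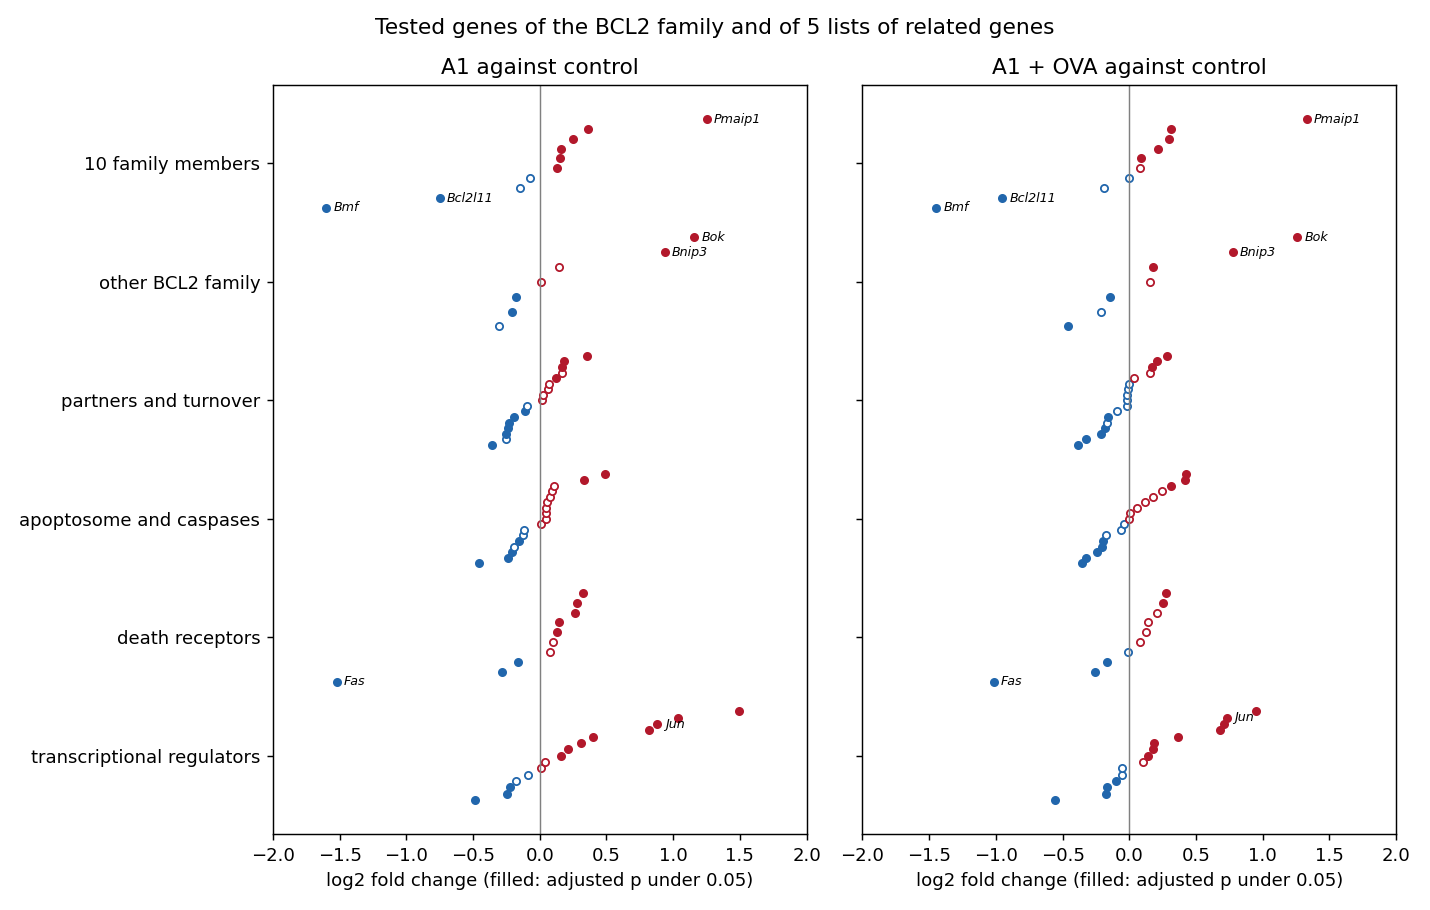
Log2 fold changes (x axis) of the tested genes in the 10 family members and 5 lists of related genes (y axis) for A1 and A1 + OVA against control, where filled points have an adjusted p-value under 0.05, red is higher and blue is lower, and points of a list are spread vertically by rank. Outside the family members, Fas has the lowest value in both panels (-1.52 and -1.02) and Bok the highest of the other BCL2 family (1.16 and 1.26).

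The genes most like Pmaip1 and Bmf in their pattern were sought among all tested genes. The measure was the root mean square difference of log2 CPM over 12 samples, after each gene was centred on its mean in the control samples. Nectin1 (0.108), Rap1gap2 (0.120) and Gfod1 (0.127) were nearest to Pmaip1 among 11313 genes. Their log2 fold changes with A1 were 1.34, 1.28 and 1.28. Nearest to Bmf were Trp63 (0.194), Akr1c14 (0.209) and Adamts1 (0.213), with log2 fold changes of -1.69, -1.50 and -1.41. With this centring, similar fold changes follow from how the genes were chosen. The likeness is a description across samples that share their groups.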

How the data were processed

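Raw counts per gene were deposited by the authors, who aligned strand-specific, poly(A)-selected paired-end libraries to GRCm38 with STAR 2.7 and counted reads with featureCounts 2.0. Of 55487 identifiers, 99.53% were found in GENCODE M21, which gave symbols, lengths and coordinates. The 10 genes and the lists of related genes were chosen with earlier results of these data known. Protein-coding genes that passed edgeR's filterByExpr (11314) were normalized by TMM and compared between groups in a single model of the 12 samples by the quasi-likelihood test of edgeR 4.0.16 under R 4.3.3, with Benjamini-Hochberg adjustment. Named genes were all 10 members, related genes picked by role, some of which are not reported here, and the 3 genes nearest to the members with the largest increase and decrease. Whether the samples of a group came from separate mice or cultures is not stated, so that p-values measure the spread between these samples, which may be technical. The MSCs were grown from femurs of young female mice, expanded and frozen before use. Squared differences between replicates of a group were 1.91 to 6.80 times those of counting alone, averaged over genes, so that none was a copy. The tests were checked on simulated counts with few changed genes, balanced between up and down. That setting does not check the choice of scaling where many genes change. The alternatives included DESeq2 1.42.0. On the opposite strand, Bid, Bad, Bak1 and Bcl2 overlap other genes, which strand-specific counting separates. The smallest signal considered was 3 counts in a sample.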

Additional observations from a re-analysis of the deposited data

Results flagged for a closer look

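In groups of 4 samples, 6 of 111 combinations of a gene and a group had a highest or lowest sample whose gap to the nearest other sample exceeded the critical value of Dixon's test on the group's range at the 95% level, which chance gives in about 1 in 20 groups. Bak1 in control MSCs had a ratio of 0.879, with replicate 1 at 135.2 CPM and the others at 118.8 to 120.8 CPM. Bbc3 in A1-treated MSCs had 0.963 (replicate 4 at 4.65 CPM, the others at 2.82 to 2.89 CPM). Diablo had 0.848 in the same group (replicate 3 at 5.50 CPM, the others at 6.87 to 7.12 CPM). In control MSCs, replicate 1 was the low sample for Birc2 (0.849, 27.5 CPM against 30.3 to 30.8 CPM), Tnfrsf10b (0.890, 57.3 CPM against 59.1 to 59.3 CPM) and Ddit3 (0.836, 24.1 CPM against 27.01 to 27.59 CPM). Control replicate 1 was thus the distant sample in 4 of the 6 combinations. What sets it apart was not tested.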

How the results depend on the processing

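With a change of 0.5 or more on the log2 scale also required, the 10 genes had 3 calls with A1, 3 with A1 + OVA and 0 between the treatments. By construction of this stricter rule, the other BCL2 genes had 2, 2 and 0, partners 0 and 0, and caspases 0, 0 and 0. The death receptor list had 1, 1 and 1, and regulators 4, 5 and 1. Of all tested genes, 9.41% rose and 11.6% fell by this size with A1, and 8.92% and 8.79% with A1 + OVA. Between the treatments 0.769% were higher and 0.433% lower. Between the treatments, the 10 genes had 1 call in place of 2 with DESeq2, with no filter on low counts and with the replicate block, and 1 to 2 when a sample was left out. The other BCL2 genes had 1 in place of 2 with upper-quartile scaling, no TMM scaling, DESeq2, only the compared groups in the fit and the replicate block, and 1 to 2 when a sample was left out. Regulators had 1 to 3 calls when a sample was left out. The cause was not tested.

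Replicate numbers did not pair the samples: same-numbered samples of different groups had deviations from the group means that correlated at 0.0215 on average (12 pairs), and differently numbered ones at -0.00704 (36 pairs). With the number as a replicate block, the 10 genes had 8, 8 and 1 calls in the 3 comparisons: Bad was called lower with A1 + OVA against control (adjusted p = 0.0219), Bcl2l2 lost its call between the treatments, and no other call of the 10 genes changed. Depth limits Bmf most, at 24 to 133 counts a sample.

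Values near 0 changed sign. Without TMM scaling, log2 fold changes with A1 were -0.0318 for Diablo, -0.0301 for Birc3 and -0.0396 for Trp53. With a sample left out, they ranged from -0.00862 to 0.121 for Diablo and from -0.0676 to 0.179 for Birc3. Those with A1 + OVA against control ranged from -0.0138 to 0.0233 for Bid, from -0.0685 to 0.0305 for Usp9x and from -0.196 to 0.00600 for Huwe1, and those between the treatments from -0.00667 to 0.272 for Bmf and from -0.0855 to 0.0345 for Bad. None of these passed the threshold in the fit of all 12 samples. Of the 600 values of the 10 genes over 20 alternatives and 3 comparisons, 539 kept direction and call, 42 lost a call, 15 gained one and 4 changed sign.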
